A study of Meriones unguiculatus with 18 samples.

Results

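Liver RNA of Mongolian gerbils (Meriones unguiculatus) fed a high-fat diet (HFD) for 4 weeks was compared with that of gerbils fed a normal diet (ND) for the same time. All 3 libraries labelled HFD at 4 weeks and all 3 labelled ND at 4 weeks were taken, which are 6 of the 18 libraries of the study, and the libraries of 8 and 16 weeks were left out. The gerbils were males of 40 to 60 g when they were allotted to the diets. The sources used here do not give strain, genotype or age. ND was normal feed alone. HFD was 80.5% ordinary feed with 10% egg yolk powder, 7% of a component the labels call lard bile, 2% cholesterol and 0.5% of a bile salt product, so that cholesterol and bile salt were raised along with fat. The labels' protocols count 36 gerbils and the series' design text 18. It is not stated there whether a library holds RNA of 1 animal or of several, so SD and p-values below measure the spread between libraries.

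The liver takes up cholesterol from the diet, and when hepatocytes, its main cells, hold ample cholesterol they process less SREBP2, the transcription factor that drives the genes of sterol synthesis. Lipid that is not burned, stored or exported can be taken up by macrophages, which break it down in lysosomes. Stellate cells, which store vitamin A at rest, can turn into contractile cells that lay down collagen.

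The values are normalized expression levels per unigene, a unigene being the longest transcript of a cluster assembled from reads without a genome. When sorted, the columns hold nearly the same values over their highest ranks (relative gap of at most 0.01), and the highest is 28764 in each of the 6. A level is thus set largely by the rank of a unigene in its library, and sequencing depth is unknown. The low ends differ by diet: the lowest value was 0.1406, 0.0236 and 0.1133 in ND 4W 1, 2 and 3 and 0 in each HFD library. Levels are compared below between libraries and not between genes. The table has 13172 unigenes, and a gene name is attached to 3767 of them. Those with a mean level of at least 1 over the 6 libraries were tested, 8610 in all and 2745 with a name. A unigene at the lowest value of a library is called not detected there, and 2114 of the 2745 were detected in all 6. Every gene named below was detected in all 6 libraries unless its detection is given.

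The 6 libraries did not differ by diet alone. Pearson's r of log values was 0.83 to 0.84 between ND libraries, 0.84 between HFD 4W 2 and HFD 4W 3, and 0.77 to 0.78 between HFD 4W 1 and those 2, compared with 0.71 to 0.74 between libraries of different diet (15 pairs; unigenes are not independent replicates). From 3910 to 5273 unigenes were at the lowest value in an ND library and 2627 to 3012 in an HFD library. A set of 29 unigenes with ribosomal protein names in fruit fly spelling was detected in 0 ND libraries and not in HFD 4W 1, but all 29 were detected in HFD 4W 2 and in HFD 4W 3. This set divides the HFD libraries and does not follow diet alone. In no comparison below can diet be told apart from other differences between the ND and HFD libraries, such as the lowest-value counts. ALB, for albumin, the main protein secreted by hepatocytes, held the highest value in 5 of the 6 libraries and a level of 8090 in HFD 4W 2, which matches the liver label. Of 13 hepatocyte markers 5 had a unigene and none of their 6 tested unigenes was called by limma (0 also at an unadjusted p under 0.05).

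Against that background, the named genes that rose on HFD included macrophage, lysosome, collagen and cytoskeleton genes, and those that fell included genes of sterol synthesis, the mitochondrial respiratory chain, the ribosome and RNA processing. A unigene was called at a Benjamini-Hochberg adjusted p under 0.05 in limma's moderated test on log2(value + 1), adjusted over all 8610 unigenes tested. Differences are HFD minus ND on that scale, where changes of unigenes with low levels come out too small. Of the 8610, 334 were called higher and 529 lower (10.0% in all; 3.88% and 6.14%), and 2234 had an unadjusted p under 0.05. Among the 2114 named unigenes detected in all 6 libraries, 165 were called higher and 152 lower (7.81% and 7.19%), with a median difference of -0.04. The 3 HFD values lay all above the 3 ND values in 449 of them (21.2%) and all below in 517 (24.5%), together 966 (45.7%). Over all 4135 unigenes detected in all 6, with or without a name, 203 were called higher and 253 lower (4.91% and 6.12%). Rescaling the libraries by median ratios moved the median difference over all tested unigenes by 0.171 and gave 487 higher and 397 lower. Without HFD 4W 1 there were 587 higher and 498 lower, so over all tested unigenes the excess of falls over rises depended on that library and on the scaling. Among unigenes detected in all 6, falls still outnumbered rises without HFD 4W 1 (169 higher and 211 lower) but not after rescaling (312 and 143). The total of 863 calls fell to 244 without ND 4W 1, 325 without ND 4W 3, 384 without HFD 4W 2 and 300 without HFD 4W 3. Of the 317 named calls, 69 stayed calls in each of the 6 fits that leave out 1 library, 231 did so without HFD 4W 1 and 249 after rescaling. Calls that were kept in all 6 such fits are named as such below.

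**Figure D1:**
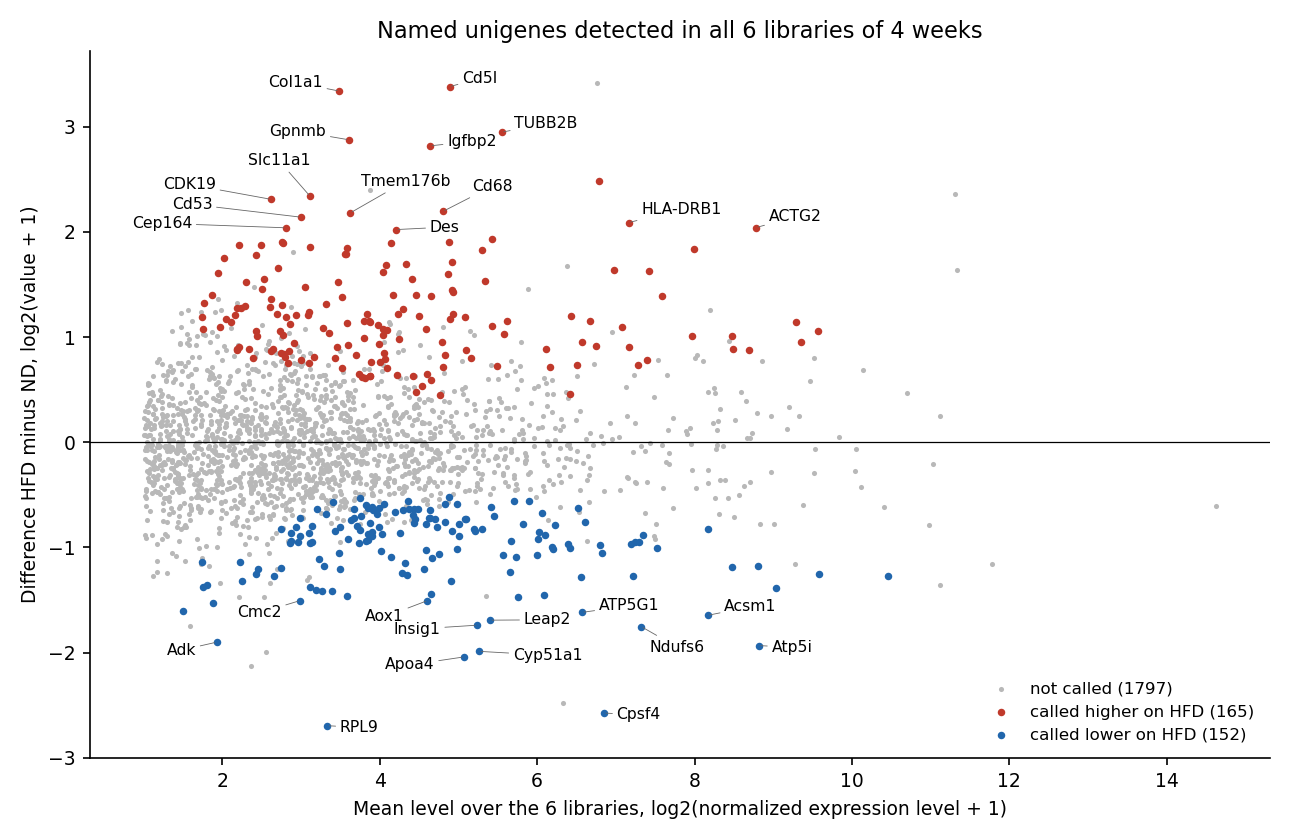
Each point is a named unigene detected in all 6 libraries: its mean level over the libraries, log2(level + 1), runs along the x axis and its difference HFD minus ND on the log2(value + 1) scale along the y axis. Red points are the 165 called higher on HFD and blue points the 152 called lower. The labelled genes are the largest called rises and falls, Col1a1 and Cd5l being the highest of them and RPL9 and Cpsf4 the lowest.

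Most macrophage markers detected in all 6 libraries, 9 of 12 unigenes, were called higher on HFD. Cd68 (TRINITY_DN29163_c0_g1), a glycoprotein of macrophage lysosomes, was at 9.07, 8.83 and 8.78 in the ND libraries and at 35.1, 54.3 and 45.6 in HFD 4W 1, 2 and 3. Gpnmb (TRINITY_DN35089_c2_g2), a glycoprotein of lipid-laden macrophages, was at 2.36, 1.28 and 1.81 on ND and at 13.4, 18.0 and 30.2 on HFD. Slc11a1 (TRINITY_DN36076_c1_g1), which pumps metal ions out of the phagosome, was at 1.68 to 1.97 on ND and at 12.7, 15.1 and 12.6 on HFD. In none of the 3 genes did the groups overlap, and the lowest HFD value was more than the highest ND value by a margin larger than the range within ND. The differences were 2.19 (SE 0.17) for Cd68, 2.88 (SE 0.31) for Gpnmb and 2.34 (SE 0.18) for Slc11a1, with limma adjusted p of 0.00158, 0.00366 and 0.00148. All 3 calls were kept in the 6 fits that leave out a library.

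Cd5l (TRINITY_DN31636_c0_g1), a protein that tissue macrophages secrete, had the largest called rise of a named gene detected everywhere. Its ND values were spread widely, at 9.10, 0.548 and 6.83, against 54.1, 62.8 and 38.2 on HFD. Its difference of 3.38 (SE 0.66, adjusted p = 0.0230) lost its call without ND 4W 3 or without any HFD library (adjusted p of 0.0564 to 0.0776). Cd53, a tetraspanin of leukocytes, rose from 1.96 ± 0.34 to 12.0 ± 1.33 (SD, n = 3 each; difference 2.14, adjusted p = 0.00233). Both cytosolic and membrane parts of the phagocyte oxidase were higher: Ncf1 rose by 1.90 and Cyba by 1.52, and these calls, like that of Cd53, were kept in all 6 fits.

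Over the list of macrophage and monocyte markers, 12 of 17 tested unigenes were detected in all 6 libraries, and 9 of these 12 rose, 0 fell (11 and 0 at an unadjusted p under 0.05) and the median difference was 1.71, compared with -0.04 over all named unigenes detected everywhere. The other called members were the integrin Itgax (1.33) and the tetraspanin Cd63 (0.78), whose calls were lost without any 1 ND library, HFD 4W 2 or HFD 4W 3 (adjusted p up to 0.125). Not called were the mannose receptor Mrc1 (0.56), Aif1 (0.53) and Cd52 (0.38). With 1 library left out, 6 (without ND 4W 3, HFD 4W 2 or HFD 4W 3) to 8 (without HFD 4W 1) of the 17 unigenes were higher. The 3 called lower, Fabp5, CYBA and LGALS3, were detected in 3 ND and 0 HFD libraries, and Cyba and CYBA are names of neighbouring unigenes that were called in opposite directions. Of the 16 markers used to check for this cell type, 5 had a unigene: Cd68, Cd5l, Gpnmb, Itgax and C1qc. Their summed level was 11.3 to 21.5 in ND and 106 to 139 in HFD libraries. Apart from C1qc these are called genes given above, so the sum is no separate evidence. The complement gene C1qc was not tested, its mean level being under 1. In bulk liver RNA, more cells of a type and more RNA per cell cannot be told apart.

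Lysosome genes of wider expression rose in part. Psap, the precursor of the saposins that help degrade sphingolipids, was at 49.2, 77.5 and 55.1 on ND and 172, 204 and 189 on HFD. Its difference of 1.64 (SE 0.19, adjusted p = 0.00422) was kept in all 6 fits. Of 22 lysosome unigenes detected in all 6 libraries 4 rose, among them Cd68, Psap and Cd63, and 0 fell (9 and 1 at an unadjusted p under 0.05), with a median of 0.29; 2 of all 26 tested were called higher without ND 4W 1 or HFD 4W 3 and 6 without HFD 4W 1. The progranulin gene Grn (0.77), the protease Ctsa (-0.89), the membrane protein Lamp1 (0.13) and the regulator Tfeb (0.31) were not called. CTSB, detected in 3 ND and 1 HFD library, was called lower (-1.65).

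Some collagen and stellate cell genes were called higher on HFD, 3 of 11 collagen and matrix unigenes and 3 of 7 stellate cell unigenes detected everywhere. Col1a1 (TRINITY_DN32772_c0_g1), for 1 of the chains of fibrillar collagen I, was at 1.02, 0.941 and 0.921 on ND and at 12.8, 23.4 and 22.2 on HFD. Serpinh1, the chaperone that folds collagen in the endoplasmic reticulum, was at 8.02, 6.64 and 6.26 and at 17.0, 27.2 and 27.7. Des, which encodes the filament desmin and marks stellate cells in rodent liver, was at 6.01, 5.6 and 7.14 and at 21.8, 33.1 and 31.5. In each of the 3 the lowest HFD value was that of HFD 4W 1, and it lay above all ND values. The differences were 3.34 (SE 0.26), 1.62 (SE 0.22) and 2.02 (SE 0.19), with adjusted p of 0.00150, 0.00728 and 0.00301, and the calls were kept in all 6 fits.

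None of the 11 collagen and matrix unigenes fell (8 higher and 0 lower at an unadjusted p under 0.05), and their median difference was 0.96. Col5a2, a chain of type V collagen, rose by 1.28 but not without ND 4W 1, HFD 4W 2 or HFD 4W 3 (adjusted p up to 0.0685). Elastin (Eln, 1.15, adjusted p = 0.0864) and Col6a1 (1.03, adjusted p = 0.0832) did not pass the test, although their 3 HFD values lay above the ND values. The fibrillin Fbn1 (-0.87) and the inhibitor Timp3 (0.48) were not called. Of 7 stellate cell and myofibroblast unigenes 3 rose and 0 fell, with a median of 0.67: Des, TAGLN (1.22, kept in all 6 fits), a calponin-family protein of contractile cells, and Sfrp1 (1.40), a secreted Wnt antagonist whose call was lost without any 1 library other than HFD 4W 1 (adjusted p up to 0.139). Thy1 (0.67) and the myosin light chain MYL9 (-0.72) were not called. The summed level of the 4 stellate markers with a unigene was at most 16.9 in ND and 58.6 to 77.7 in HFD libraries. The markers are Col1a1, Des, TAGLN and Thy1, all given above, so the sum is no separate evidence.

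Cytoskeleton genes gave the longest list of rises. TUBB2B, a beta-tubulin, was at 11.8, 6.84 and 11.2 on ND and at 91.8, 83.4 and 70.4 on HFD, a difference of 2.95 (SE 0.21, adjusted p = 0.00148). ACTG2, named for the gamma-actin of smooth muscle, was at 152, 187 and 172 and at 823, 572 and 731, a difference of 2.04 (SE 0.20, adjusted p = 0.00301). Actins and tubulins are families of near-identical copies, so which family member these unigenes stand for is uncertain. Of 36 actin, tubulin and filament unigenes detected in all 6 libraries, 12 rose and 2 fell, with a median of 0.37. Those kept in all 6 fits were TUBB2B, ACTG2, Des, Marcksl1 (1.79), a regulator of cortical actin, and the actin crosslinker Actn4 (1.15). The smaller rises of Ezr, CORO1B, ZYX, Myo9b, Flna, Myo1c and Tpm3 (0.48 to 1.29) each lost the call in at least 2 of those fits, and the list had 5 rises without ND 4W 1 or HFD 4W 3 and 14 without HFD 4W 1. The 2 falls were ARPC5L (-0.89), of the Arp2/3 complex, and Actr5 (-1.2), which despite its actin-like name belongs to a chromatin remodelling complex.

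**Figure D2:**
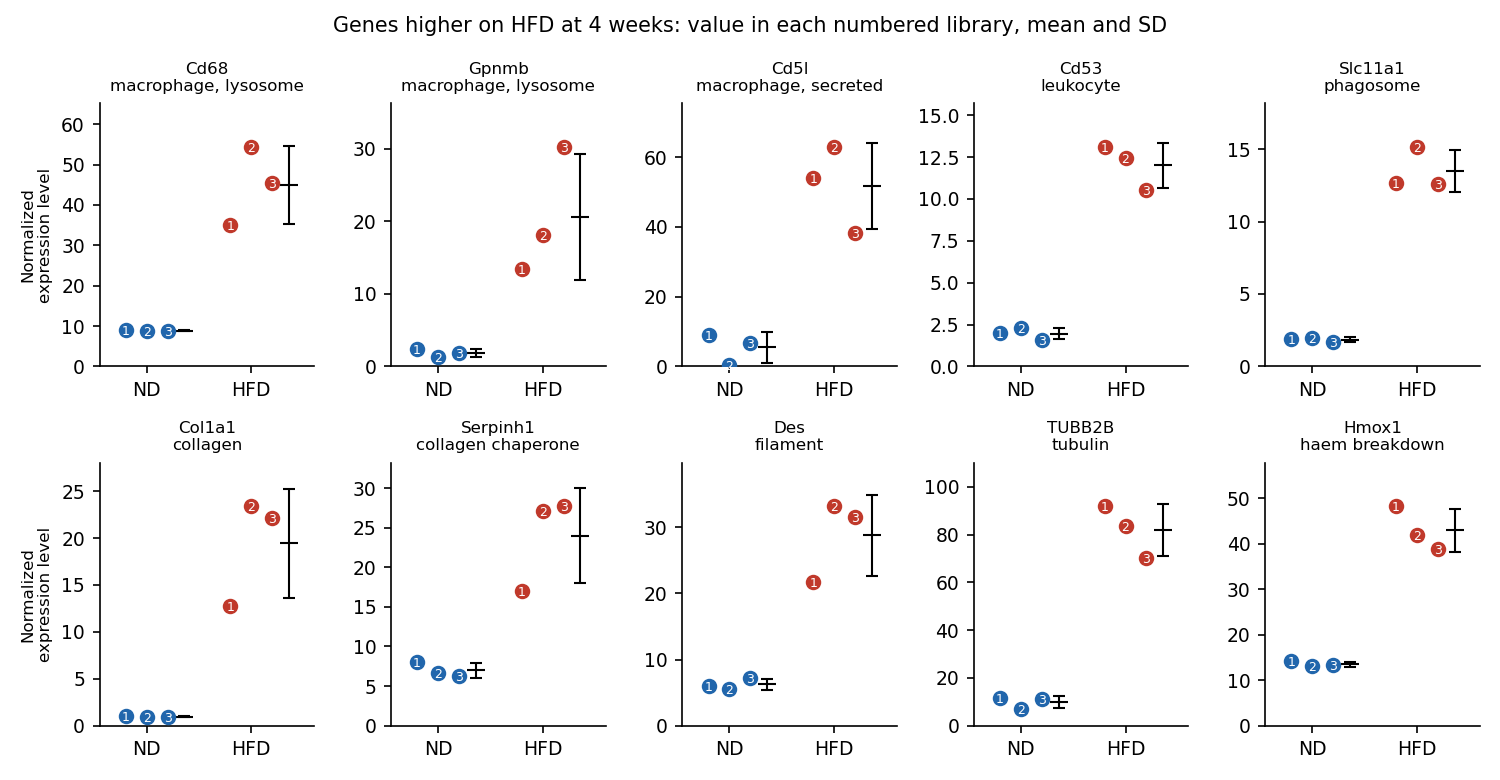
Normalized expression level (y axis, from 0) of 10 genes called higher on HFD, in ND (blue) and HFD (red) libraries; the digit in a point is the library number, and the bar beside the points is the mean with its SD over 3 libraries. In each panel the 3 HFD points lie above the 3 ND points, and for Col1a1, Serpinh1, Des, Cd68 and Gpnmb the lowest HFD point is library 1.

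The 3 tested sterol synthesis genes, Cyp51a1, Lss and Ebp, fell on HFD, as did the sterol sensing gene Insig1. Cyp51a1 (TRINITY_DN35135_c1_g1), the lanosterol demethylase, was at 57.9, 48.0 and 76.2 on ND and at 15.5, 13.6 and 13.8 on HFD. Lss, the lanosterol synthase one step earlier, was at 7.19, 8.11 and 8.39 and at 2.69, 2.22 and 3.18. Insig1 (TRINITY_DN35805_c4_g1), which holds the SREBP escort in the endoplasmic reticulum and is itself an SREBP target, was at 60.8, 39.6 and 71.6 and at 13.5, 15.1 and 19.9. No HFD value reached the lowest ND value in any of them. The differences were -1.99 for Cyp51a1 (SE 0.18, adjusted p = 0.00244), -1.27 for Lss (SE 0.20, adjusted p = 0.0112) and -1.74 for Insig1 (SE 0.24, adjusted p = 0.00861).

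All 3 tested unigenes of the sterol synthesis list fell, including Ebp, the sterol isomerase, at 60.0, 66.8 and 86.5 on ND and 37.1, 25.7 and 35.5 on HFD (-1.09, adjusted p = 0.0171). The calls of Cyp51a1 and Insig1 were kept in all 6 fits. Lss lost its call without ND 4W 3 (adjusted p = 0.0533), and Ebp kept its call only without HFD 4W 1 (adjusted p of 0.0510 to 0.0618 otherwise). A shorter unigene spelled insig1 had values of 1.82, 2.09 and 2.28 against 0.197, 0.332 and 0.276 and was not called (-1.27, adjusted p = 0.0714). Among 9 unigenes of sterol sensing, uptake and trafficking, Insig1 fell and LRP1, a receptor for lipoprotein remnants, rose by 0.73 (lost without ND 4W 1, ND 4W 3, HFD 4W 2 or HFD 4W 3, adjusted p up to 0.0756). Scap (-0.38), the SREBP escort itself, Soat2 (0.34), which esterifies cholesterol, and NR1H2 (0.74), an oxysterol receptor, were not called.

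Genes of lipid and carbohydrate handling moved singly and not as lists. Mlxipl, which encodes the carbohydrate-sensing factor ChREBP, was at 19, 21.4 and 12.3 on ND and at 41.1, 39.6 and 43.5 on HFD (1.22, adjusted p = 0.0141; lost without ND 4W 1 or HFD 4W 3, 0.0549 and 0.0597). Gckr, the inhibitor that holds glucokinase in the nucleus, was at 67.4, 62.1 and 79.1 on ND and at 24.9, 29.6 and 32.3 on HFD. PKM, named for the pyruvate kinase of muscle and proliferating cells, was at 8.92, 7.59 and 7.69 and at 17.7, 19.1 and 20.6. Groups did not overlap in any of these, and the differences of Gckr (-1.24, SE 0.15, adjusted p = 0.00500) and PKM (1.15, SE 0.14, adjusted p = 0.00496) were kept in all 6 fits.

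The remaining 13 of 15 glucose and glycogen unigenes detected everywhere were not called, among them the glycogen synthase Gys2 (-0.74), Fbp1 of gluconeogenesis (-0.78) and the glucose transporter Slc2a2 (0.16). Of 7 unigenes of fatty acid and triglyceride synthesis, Mlxipl rose, and Dgat1, which adds the last acyl chain to triglyceride, fell by 0.73, a call lost after rescaling and without ND 4W 1, ND 4W 3 or HFD 4W 3. Fatty acid synthase, Fasn, was at 18.9 to 21.4 on ND and 15.3 to 27.2 on HFD (-0.10), and Gpam (-0.52) and Pnpla3 (-0.08) were not called either. Among 9 fatty acid oxidation unigenes only ACOT1, an acyl-CoA thioesterase, was called (-0.67), and not after rescaling or without any 1 library (adjusted p of 0.0622 to 0.131). Ehhadh of the peroxisome (0.08) and the carnitine acyltransferase Crot (0.29) were not called. Of 4 apolipoprotein unigenes detected everywhere Apoa4 was lower, at 95.3, 39.2 and 27.1 on ND and 15.4, 13 and 5.83 on HFD. The groups did not overlap, but ND 4W 1 stood apart, and the call (-2.04, SE 0.50, adjusted p = 0.0468) was lost without any 1 library (0.0597 to 0.126) and after rescaling. Among 6 bile acid unigenes 1 was called, Fgfr4, the hepatocyte receptor for the intestinal hormone FGF19 (FGF15 in mice), which rose from 23.1 ± 5.09 to 43.2 ± 7.78 (0.88, adjusted p = 0.0343; lost without ND 4W 1, ND 4W 3, HFD 4W 2 or HFD 4W 3). Its co-receptor Klb had a difference of -0.94 and was not called (adjusted p = 0.114). Of 4 lipid droplet and fatty acid binding unigenes, Plin4 (-0.10) and Hsd17b11 (0.43) were detected everywhere and were not called. The other 2 were called lower: DBI (-2.07, adjusted p = 0.0185), which binds acyl-CoA and was detected in 3 ND and 1 HFD library, and the fatty acid binding protein Fabp5 (-1.70, adjusted p = 0.0399), detected in 3 ND and 0 HFD libraries. Neither was called without ND 4W 1, ND 4W 3, HFD 4W 2 or HFD 4W 3.

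Of 16 respiratory chain and ATP synthase unigenes detected in all 6 libraries, 8 were called lower on HFD. Ndufs6 of complex I was at 278, 200 and 259 on ND and at 82.6, 76.6 and 57.9 on HFD. Ndufb5, also of complex I, was at 140, 116 and 140 and at 56.5, 51.3 and 53.6. Atp5i, subunit e of ATP synthase, was at 911, 428 and 823 and at 152, 212 and 177. No HFD value reached the lowest ND value in these genes, and the low ND value of Atp5i was that of ND 4W 2. The differences were -1.75 (SE 0.19, adjusted p = 0.00370), -1.28 (SE 0.13, adjusted p = 0.00307) and -1.93 (SE 0.31, adjusted p = 0.0130).

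None of the 16 rose (10 lower and 0 higher at an unadjusted p under 0.05), and their median difference was -0.75. Ndufs6, Ndufb5, NDUFB11 (-1.01) and Cmc2 (-1.51), which takes part in the assembly of cytochrome oxidase, were kept in all 6 fits. Atp5i, ATP5G1 (-1.62), Ndufa2 (-1.27) and Cox7c (-1.25) each lost the call without ND 4W 1 or ND 4W 3 (adjusted p up to 0.0737). Atp5i, Ndufa2 and Cox7c lost it without HFD 4W 3 as well (adjusted p up to 0.0887), and Cox7c also without HFD 4W 2 (adjusted p = 0.0592). The ATP synthase subunits Atp5a1 (-0.39) and Atp5b (-0.27) and SDHC (-0.21) of complex II were not called. Over all 33 tested unigenes 16 fell, of which 8 were detected in 3 ND and 1 HFD library, and with 1 library left out the falls numbered 5 without ND 4W 1 or ND 4W 3, 7 without HFD 4W 3, 10 without HFD 4W 2 and 17 without HFD 4W 1. Unigenes named for genes of the mitochondrial genome (6) were detected in 0 ND libraries and 1 or 2 HFD libraries and were not called.

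Mitochondrial import and translation showed 3 falls and 0 rises among 9 unigenes detected everywhere (3 and 1 at an unadjusted p under 0.05), with a median of -0.09. Mrpl15, a protein of the mitochondrial ribosome, fell by 0.83 and was kept in all 6 fits. Mrps22 (-0.62, lost without any 1 library) and Chchd4 (-0.92, lost without ND 4W 1, HFD 4W 2 or HFD 4W 3), the oxidoreductase that folds imported proteins, lost the call after rescaling as well. In the tricarboxylic acid cycle CS, citrate synthase, rose by 0.95, a call lost without any 1 ND library or HFD 4W 3 (adjusted p up to 0.0852), and the other 5 unigenes detected everywhere were not called. Acsm1, a mitochondrial synthetase for medium-chain acyl-CoA, fell from 435 ± 94.1 to 137 ± 23.5 (-1.65, SE 0.22, adjusted p = 0.00743, kept in all 6 fits).

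**Figure D3:**
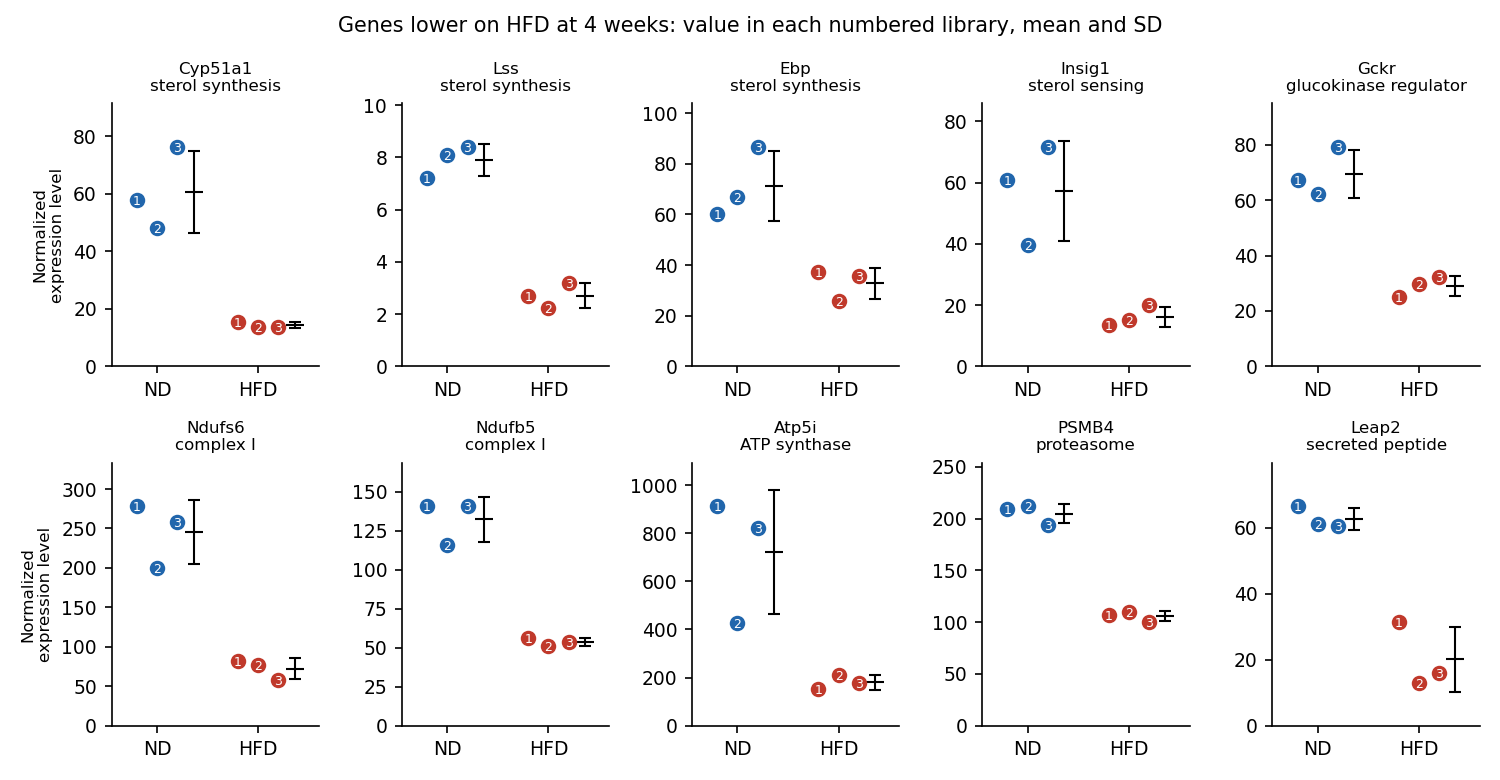
Normalized expression level (y axis, from 0) of 10 genes called lower on HFD, drawn as for the rises: blue ND and red HFD libraries with their numbers, and the mean with its SD over 3 libraries. In each panel the 3 HFD points lie below the 3 ND points.

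Some genes of the ribosome, the proteasome and RNA processing fell. Among 19 cytosolic ribosomal unigenes detected in all 6 libraries, 5 fell and 0 rose (9 and 1 at an unadjusted p under 0.05), with a median of -0.38. RPL9 had, in 1 of its unigenes, the largest called fall of a named gene detected everywhere, from 19.8, 12.1 and 17.5 to 2.34, 1.63 and 1.11 (-2.69, SE 0.26, adjusted p = 0.00301, kept in all 6 fits), and a neighbouring RPL9 unigene fell by 1.07. RPS9 (-1.18), RPS25 (-1.19) and RPL7 (-0.83) were also lower, and these calls and that of the neighbouring RPL9 unigene were lost without ND 4W 1 or HFD 4W 3, some of them also without others (adjusted p up to 0.107). RPLP0 (0.52) and RPL10 (0.21) were not called. Ribosomal protein genes have many processed copies, so the assignment of reads to these unigenes is uncertain. Over all 78 tested ribosomal unigenes the median had the opposite sign, 1.12, since many of them were detected in HFD libraries alone. In limma 0 were called higher (3 at an unadjusted p under 0.05), but 32 were without HFD 4W 1. The 29 unigenes with ribosomal names in fruit fly spelling were detected in HFD 4W 2 and HFD 4W 3 alone, the HFD libraries of that fit. The 32 are therefore not read as rises of gerbil ribosomal genes.

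The proteasome subunits PSMB4, PSMA5 and PSMC2 fell by 0.95, 0.94 and 0.92 and were kept in all 6 fits. PSMB4 was at 209, 212 and 194 on ND and at 107, 110 and 100 on HFD, with narrow spread in both groups. The other 6 of 9 proteasome unigenes detected everywhere were not called (-0.40 to -0.16). Of 47 RNA splicing and RNA-binding unigenes, 9 fell and 0 rose (14 and 5 at an unadjusted p under 0.05), with a median of -0.17. Cpsf4, of the complex that cleaves pre-mRNA before the poly(A) tail, was at 212, 139 and 240 on ND and at 26.8, 28.8 and 39.9 on HFD (-2.57, SE 0.24, adjusted p = 0.00281). LSM6 (-1.41), of the ring on U6 RNA, was kept in all 6 fits as was Cpsf4. LSM3, Lsm4, SNRPE, SRSF7, Ddx50, SF3B2 and Hnrnpc fell by 0.71 to 1.10 and each lost the call without ND 4W 1 or HFD 4W 3, as well as others. The falls of the list numbered 2 without ND 4W 1, 3 without ND 4W 3, 4 without HFD 4W 3, 6 without HFD 4W 2 and 12 without HFD 4W 1, over all 58 tested.

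Among 18 translation factor unigenes 2 rose and 3 fell (7.81% and 7.19% over all named unigenes detected in all 6 libraries). PABPC1, which binds the poly(A) tail, rose from 51.4 ± 5.6 to 119 ± 7.33 (1.2, kept in all 6 fits), and EEF2, the elongation factor, had a rise of 1.01 lost without any 1 library other than ND 4W 2. Eif6 (-0.73), EIF3K (-0.63) and Eif3b (-0.58) were called lower, but none of the 3 after rescaling. In the ubiquitin list the ligases Rnf31 (1.02) and Rnf145 (0.94) rose and 0 of 35 unigenes detected everywhere fell. DNAJA1 (-0.79) was the 1 call among 8 cytosolic heat shock unigenes and was lost after rescaling.

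Genes of plasma proteins moved in both directions. C9, the complement protein that forms the membrane pore, was at 79.1, 88.7 and 80.7 on ND and at 267, 249 and 259 on HFD. Leap2, a liver peptide that blocks the ghrelin receptor, was at 66.4, 61.1 and 60.5 and at 31.3, 12.9 and 16.0. Igfbp2, which binds insulin-like growth factors, was at 7.24, 5.36 and 1.91 and at 29.9, 20.5 and 79.1. Groups did not overlap, but HFD 4W 1 lay apart from the other HFD values for Leap2 and HFD 4W 3 for Igfbp2. The difference of C9 (1.63, SE 0.12, adjusted p = 0.00148) was kept in all 6 fits. Those of Leap2 (-1.69, SE 0.29, adjusted p = 0.0163) and Igfbp2 (2.82, SE 0.55, adjusted p = 0.0231) were lost without any 1 ND library or HFD 4W 3 (adjusted p of 0.0567 to 0.0789).

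Of 26 plasma protein unigenes detected in all 6 libraries 4 rose and 3 fell (7.81% and 7.19% over all such named unigenes), with a median of 0.08. Without ND 4W 1, ND 4W 3 or HFD 4W 3 the list had 1 rise and 0 falls. The secreted chaperone clusterin, Clu, rose from 492 ± 42.8 to 1028 ± 135 (1.05) and Igfbp4 from 441 ± 47.9 to 863 ± 159 (0.96). Fetub, a secreted protease inhibitor of the fetuin family, fell from 760 ± 203 to 284 ± 15.7 (-1.38), while 2 other Fetub unigenes (-0.26 and -0.37) were not called. The complement gene C8b fell by 0.56 in 1 of 3 unigenes. Each of these 4 calls was lost without ND 4W 1, ND 4W 3 or HFD 4W 3, among others (adjusted p up to 0.131), and that of C8b after rescaling as well. Of 4 acute phase unigenes Nfkb1, a subunit of NF-kappaB, rose from 2.04 ± 0.47 to 7.27 ± 0.52 (1.45, kept in all 6 fits), and Saa4 (-0.24) and Socs3 (0.56) were not called.

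In haem and iron handling, Hmox1, the enzyme that breaks down haem, was at 14.2, 13.1 and 13.3 on ND and at 48.2, 41.9 and 38.8 on HFD. Tfr2, the hepatocyte sensor of transferrin iron, was at 75.5, 65.1 and 79.6 and at 131, 134 and 150. The groups were well apart in both, and the differences (1.6, SE 0.13, adjusted p = 0.00158, and 0.91, SE 0.13, adjusted p = 0.00979) were kept in all 6 fits. Cp, ceruloplasmin, the copper ferroxidase of plasma, was called higher in 2 unigenes (1.84 and 0.89). Another unigene, spelled CP, had the largest difference of these (3.42) without passing the test (SE 1.04, adjusted p = 0.0874), with 41.9, 38.6 and 1.62 on ND against 229, 234 and 99.2 on HFD. The larger Cp rise lost its call without ND 4W 1 (adjusted p = 0.0558), and the smaller without any 1 library other than ND 4W 2. Urod of haem synthesis fell by 1.0, a call lost likewise. Of 14 unigenes of antioxidant, haem and iron genes detected everywhere 4 rose and 1 fell, and Cat (-0.07), Gpx4 (-0.78) and SRXN1 (-0.74) were not called. Over all 19 tested the median was 0.21. Without HFD 4W 1 it was -0.10, but over the 16 of them still tested in that fit.

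Among 47 unigenes of cytochrome P450 and conjugation enzymes 5 rose and 3 fell, with a median of 0.20. The shares over all named unigenes detected in all 6 libraries were 7.81% and 7.19%. Over all 48 tested the rises numbered 1 without ND 4W 1, 3 without ND 4W 2 and 2 without any other 1 library, and the falls 0 without ND 4W 1 or HFD 4W 2, 1 without ND 4W 2, ND 4W 3 or HFD 4W 3 and 3 without HFD 4W 1. Cyp1a2 (1.01), CYP2C26 (1.14), Ugt2b1 (0.88) and Inmt (0.71) rose, and Aox1 (-1.51), Cyp2d3 (-1.27) and Cyp2d4 (-0.94) fell, each lost without at least 3 of the 6 libraries in turn (adjusted p up to 0.152). Cytochromes of a subfamily share sequence, so these values are uncertain as to the copy. Gstm2 spread from 358 to 1263 on ND and from 1335 to 5760 on HFD and was not called (2.36, adjusted p = 0.0857). The xenobiotic receptors Nr1i3 (-0.06) and Ahr (-0.18) were not called.

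Of 21 urea cycle and amino acid unigenes 4 fell and 0 rose (4 and 0 at an unadjusted p under 0.05), with a median of -0.25. Abat, which degrades GABA, was at 28.3, 35.4 and 30.3 on ND and at 14.6, 12.3 and 18.0 on HFD (-1.03, SE 0.17, adjusted p = 0.0140; lost without ND 4W 1 or ND 4W 3, 0.0513 and 0.0564). Bhmt2 (-1.41), Dmgdh (-0.76) of the betaine pathway and Amdhd1 (-1.24) of histidine breakdown were lower. These calls were lost without ND 4W 1, 2 or 3 and after rescaling, and without ND 4W 1 or ND 4W 3 the list had 0 calls. The urea cycle genes Cps1 (0.05) and Ass1 (-1.16, adjusted p = 0.245) were not called. Ass1 was at 2423, 8090 and 4489 on ND and 1522, 2138 and 2423 on HFD.

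Among 8 liver transcription factor and nuclear receptor unigenes detected everywhere, 4 were called higher. Besides Mlxipl, Creb3l3 (1.16), a membrane-bound regulator of fasting lipid genes, JUN (1.07) and Ppard (0.88) rose, with 0 falls and a median of 0.72. None of the 4 calls was kept in all 6 fits, and the list had 0 calls without HFD 4W 3, 1 without ND 4W 1, ND 4W 3 or HFD 4W 2, and 2 without ND 4W 2 or HFD 4W 1. Of 9 unigenes of the insulin and IGF axis Igfbp2, Igfbp4 and Fgfr4 rose (0 of them without ND 4W 1, ND 4W 3 or HFD 4W 3), 0 fell, and Irs2 (-0.39 and -0.03) was not called. In the circadian clock list Per1 (1.26) and Hlf (0.84) rose among 6 unigenes, calls lost without ND 4W 3, HFD 4W 2 or HFD 4W 3. Per2 (0.40) and Per3 (0.41) were not called, and the sources used here do not say at what hour livers were taken. Among fetal liver and liver cancer genes the brain-type creatine kinase Ckb (1.78) rose beside JUN, at 2.51, 3.48 and 6.68 on ND and 13.4, 10.7 and 28.2 on HFD, a call lost without any 1 library (0.0574 to 0.125), and that list had 0 calls without HFD 4W 1.

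Some antigen presentation and interferon genes were called higher, and the unigenes called lower were all detected in only 0 or 1 HFD libraries. HLA-DRB1, named for a chain of MHC class II, was at 47.8, 44.1 and 57.9 on ND and at 178, 381 and 145 on HFD. Sp100, an interferon-induced nuclear body protein, was at 1.88, 1.70 and 2.08 and at 10.9, 9.84 and 8.50. Groups did not overlap, and HFD 4W 2 stood above the other HFD libraries for HLA-DRB1. The difference of Sp100 (1.89, SE 0.19, adjusted p = 0.00308) was kept in all 6 fits, and that of HLA-DRB1 (2.09, SE 0.34, adjusted p = 0.0140) was lost without any 1 ND library (0.0548 to 0.0628). Of 18 unigenes detected everywhere 4 rose, Irf5 in 2 unigenes (1.21 and 1.09) being the others, and 0 fell (7 and 1 at an unadjusted p under 0.05). Over all 26 tested 6 were called higher and 4 lower. The 4 falls were HLA-DPA1 (-2.10, adjusted p = 0.0142), named for another MHC class II chain, and PSMB8 (-1.94), of the immunoproteasome, both detected in 3 ND and 0 HFD libraries, and HLA-E and HLA-B, both detected in 3 ND libraries and 1 HFD library. The rises numbered 1 without ND 4W 1, 2 without ND 4W 3, HFD 4W 2 or HFD 4W 3 and 3 without ND 4W 2, and the falls 2 without ND 4W 1 or ND 4W 3. The interferon-induced genes Isg15 (-0.37), Oas2 (0.63) and Irf7 (0.91) were not called.

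Of 17 unigenes of the cytokine, chemokine and receptor list detected everywhere 0 were called by limma (3 higher and 1 lower at an unadjusted p under 0.05). Cxcl10 was at 1.06 to 1.58 on ND and 11.1, 4.00 and 2.20 on HFD (1.33, adjusted p = 0.137). Over all 26 tested 2 were called higher (Tnfaip2 and Ccl20) and 4 lower (IL7R, IL16, LTB and IL32, -2.29), the 4 being detected in 3 ND and 0 HFD libraries. Without ND 4W 1 there were 0 rises and 2 falls. The list leaves out the receptor genes CSF2RA, Csf2rb and Ifngr1, of which unigenes detected everywhere were called higher. CSF2RA and Csf2rb are given below. The Ifngr1 rise (0.61, adjusted p = 0.0369) was lost without any 1 library other than ND 4W 2, and another Ifngr1 unigene fell. Tmem176b, a membrane protein of myeloid cells, rose from 3.11 ± 0.40 to 19.6 ± 12.1 (2.18, adjusted p = 0.0153), with a high value of 33.6 in HFD 4W 2, and lost its call without any 1 ND library. Lymphocyte and granulocyte markers had 2 unigenes detected everywhere, Cd4 (0.93) and S100a8 (0.31), and 0 calls among them. Over all 9 tested 1 was called higher (Prf1) and 3 lower (PRF1, IL7R and CD2).

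Some lists held few calls or none, where 7.81% of all named unigenes detected in all 6 libraries rose and 7.19% fell. Of 55 solute carrier and ABC transporter unigenes detected everywhere 2 rose (Slc11a1 and the amino acid exchanger Slc7a7, 0.81) and 3 fell: SLC22A9 (-1.26), an organic anion transporter name, Slc25a26 (-0.81) and Slc25a3 (-0.56), carriers of the inner mitochondrial membrane. Of these 5 calls that of Slc11a1 was kept in all 6 fits. The list of 4 bile duct unigenes had 2 rises, Anxa4 (1.11) and Clu, and its other members Slc4a2 (-0.03) and PKHD1 (-0.30) were not called. Among 14 hepatocyte unigenes detected everywhere Cyp1a2 was the only call. Of unigenes detected everywhere, limma called 0 among ER chaperones (13; 1 higher and 1 lower at an unadjusted p under 0.05), endothelial markers (6; 2 and 0), peroxisome genes (7; 0 and 3), cell cycle genes (9; 0 and 1) and red blood cell and platelet markers (2; 0 and 0). Mki67, a marker of dividing cells, had a difference of 0.38, the sinusoidal endothelial receptor Stab1 0.37 (and 0.42 in a unigene detected in 2 ND and 3 HFD libraries), and haemoglobin alpha, Hba, -0.42. Bile duct, lymphocyte and red cell markers of the cell type check have no tested unigene and were not analysed here.

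**Figure D4:**
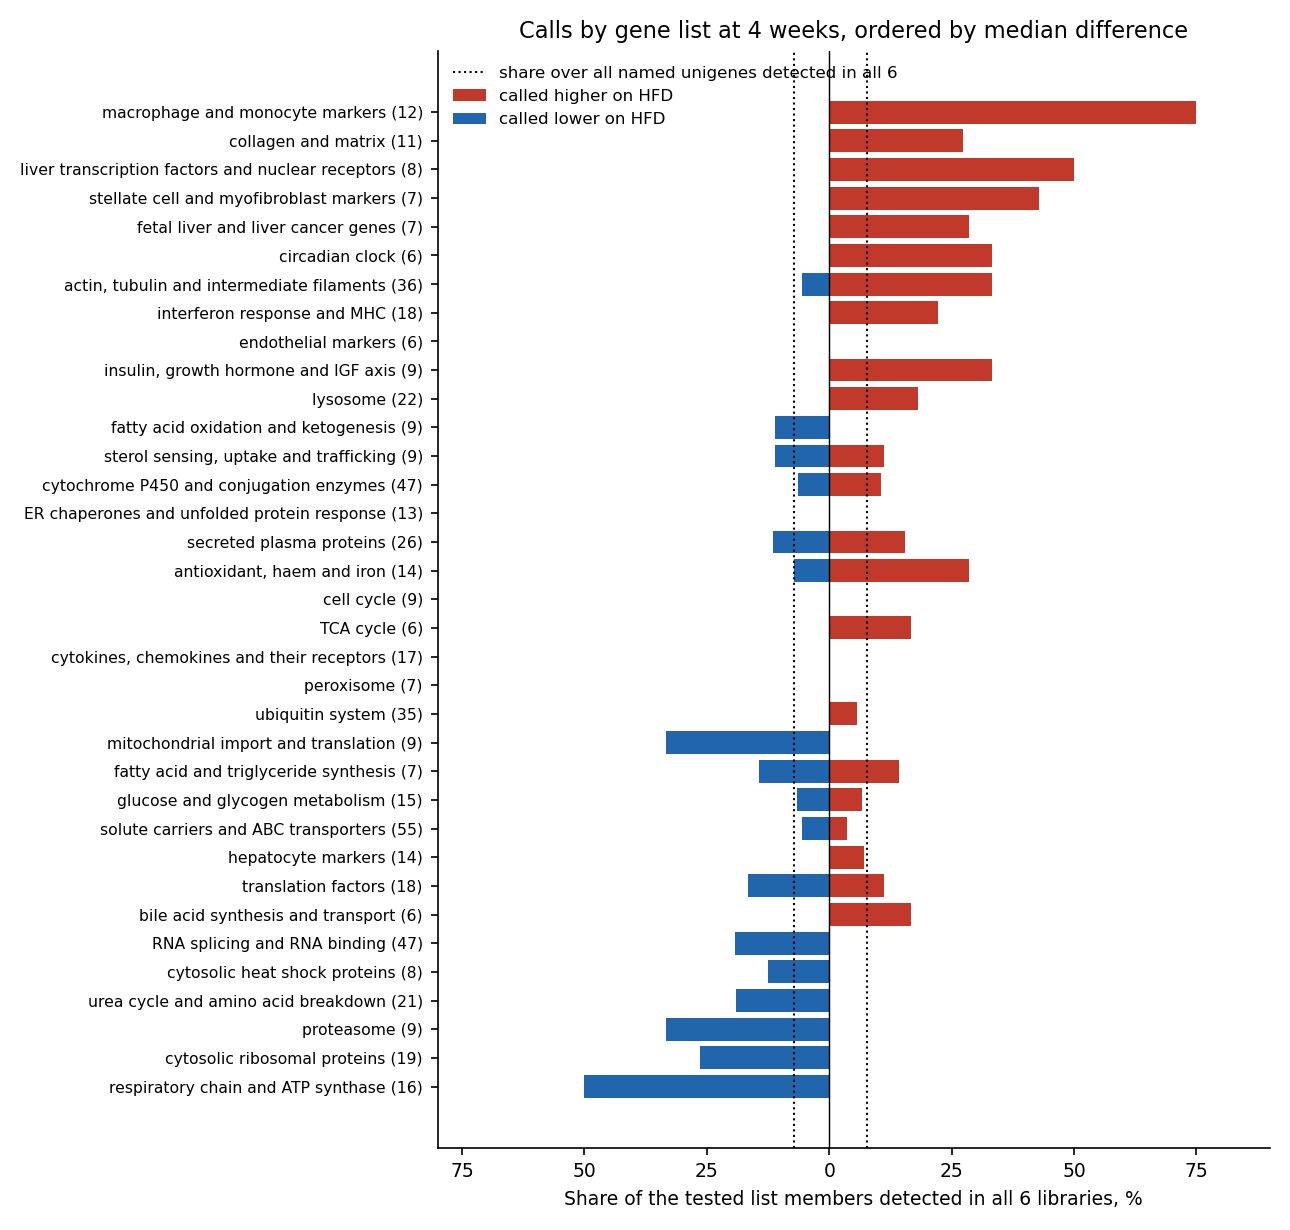
For each gene list with at least 5 tested unigenes detected in all 6 libraries (their number in brackets), the share in percent called higher on HFD runs to the right in red and the share called lower to the left in blue; lists are ordered by median difference. The dotted lines mark 7.81% higher and 7.19% lower, the shares over all 2114 named unigenes detected in all 6 libraries; macrophage markers reach furthest to the right and the respiratory chain furthest to the left.

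Other genes with the largest differences belong to none of these lists. CDK19, a kinase of the Mediator complex, rose from 1.06 ± 0.44 to 9.26 ± 2.63 (2.31) and Cep164, a centriole protein needed for cilia, from 1.75 ± 0.63 to 10.2 ± 2.22 (2.04), both kept in all 6 fits. Adk, adenosine kinase, fell from 5.05 ± 2.26 to 0.559 ± 0.18 (-1.90), a call lost without ND 4W 1, ND 4W 3, HFD 4W 2 or HFD 4W 3 (adjusted p up to 0.0744). Unigenes named Pol, gag or env, proteins of retroelements, numbered 121 in the table and 103 in the test, where 3 were called higher and 3 lower with a median of -0.06. The Pol unigene with the largest rise was at 18.4, 30.3 and 56.5 on ND and at 143, 193 and 218 on HFD (2.48, adjusted p = 0.0111, kept in all 6 fits), and 2 other Pol unigenes detected everywhere fell (-1.6 and -1.52).

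Unigenes that were not detected in some libraries followed another pattern. Of 631 such named unigenes tested, 11 were called higher and 133 lower (22.8% in all; 1.74% and 21.1%). Of these falls, 104 were among the 123 named unigenes detected in 3 ND and 0 HFD libraries, of which 116 were tested. Their names were largely outside the gerbil annotation (69.9%, compared with 15.1% of the 2295 named unigenes detected in all 6). The annotation used for names is that of another assembly of the species. A unigene had to be high in ND to enter this class, so its share of falls says nothing of the genes it is named for.

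The largest falls of this kind carried the names TIC32 (-4.07), MTI (-3.89), RBG7 (-3.66) and 10HGO (-3.63), each detected in 3 ND and 0 HFD libraries and outside the gerbil annotation. RPL38 (-3.92), HLA-E (-3.87) and HLA-B (-3.64) were seen in all 3 ND libraries and, of the HFD libraries, in HFD 4W 1 alone, at levels of 0.178 to 2.06 there. TIC32, the name of a plant plastid protein, was at 16.4, 16.3 and 14.8 on ND and listed at 0 in each HFD library. In the apolipoprotein list the median was -0.16 over the 9 tested unigenes. Without HFD 4W 1 it was -1.49, but over the 6 of them still tested in that fit. The apolipoprotein names APOE (-2.36) and APOC1 (-2.50), the cytokine names IL16 (-2.76) and LTB (-2.13), IL7R (-2.89) and CD2 (-1.93) had the same detection, 3 ND and 0 HFD libraries. So did EIF3G (-2.23), UBE2L6 (-2.48) and CDC25B (-1.85), called lower in the translation factor, ubiquitin and cell cycle lists, while TOMM7 (-3.01) and TOMM6 (-1.87) of mitochondrial import were detected in 3 ND libraries and 1 HFD library. In the opposite direction, 122 named unigenes were detected in HFD 4W 1 alone and 209 in HFD 4W 2 and HFD 4W 3 alone. Differences of unigenes listed at 0 depend on the pseudocount and are not bounds.

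Rises among unigenes not detected everywhere were few. Trpm2, a cation channel of phagocytes, was detected in 1 ND and 3 HFD libraries, at 0.729 in ND 4W 3 and at 4.90, 7.00 and 7.52 on HFD (2.55, adjusted p = 0.00668, kept in all 6 fits). A second Trpm2 unigene, detected in all 6, was called higher as well (1.15, adjusted p = 0.0353) but not without any 1 library other than ND 4W 3. Tnfaip2, induced by tumour necrosis factor (2 ND and 3 HFD libraries; 2.22), Gbp5, an interferon-induced GTPase (1 and 3; 2.16), and Ccl20, a chemokine (1 and 3; 1.97), were also called. SOWAHA (2.53), Ccdc9 (2.38), Gtf2f1 (2.12), Pif1 (2.05), Ciita (1.61), the master regulator of MHC class II, and Prf1 (1.82) were detected in 0 ND and 3 HFD libraries. Their values there were 1.80 to 7.74, so they were low throughout. Calls other than the first of Trpm2 were lost in at least 1 of the fits without a library: Ccdc9 without HFD 4W 3, SOWAHA and Gtf2f1 without HFD 4W 2 or HFD 4W 3, and the rest without ND 4W 1 among others.

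For 6 names the table held unigenes called in opposite directions: Camsap3, Cyba, EEF2, Ifngr1, Pol and Prf1, spelling in capitals included. PRF1, for perforin, was at 5.69, 3.69 and 8.13 on ND and listed at 0 on HFD, whereas Prf1 was not detected on ND and was at 2.06, 2.08 and 5.04 on HFD. In 4 of the 6 (Cyba, Ifngr1, Pol and Prf1) a falling unigene was detected in 0 HFD libraries. Both Camsap3 unigenes were detected in all 6 libraries, at 14.1 ± 2.18 and 6.31 ± 1.07 for the falling one.

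**Figure D5:**
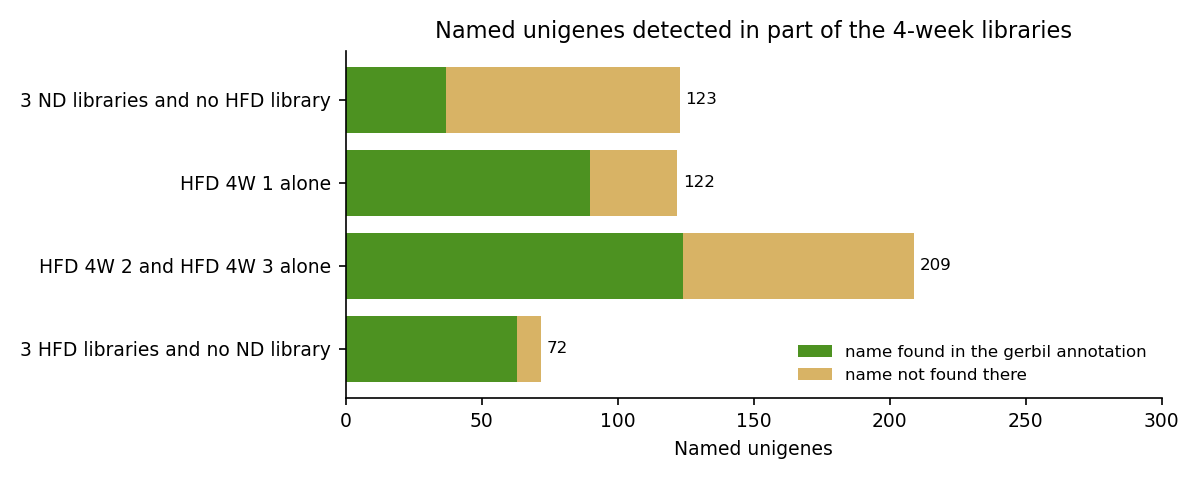
Named unigenes (x axis, number) detected in only part of the 6 libraries, by which libraries detected them; green marks names found in the gerbil annotation and sand those not found there. The class seen in 3 ND libraries and no HFD library (123) has mostly names outside the annotation, and that seen in 3 HFD libraries and no ND library (72) mostly names inside it.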

How the data were processed

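Liver RNA of 18 libraries was sequenced in paired reads of 150 bases, and the 6 libraries of 4 weeks were used here. Per the labels and the submitters' processing notes, transcripts were assembled with Trinity 2.4.0 without a genome and the longest of each cluster was kept as a unigene; Salmon and edgeR are named there without version or role. The authors deposited normalized expression levels (unit signal, never negative). Over the highest values all columns share 1 set of sorted values, with a relative gap of at most 0.01. The lowest values differ between the ND and HFD columns used. Depth is unknown, so no counting interval can be given.

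Unigenes with a mean of at least 1 over the 6 libraries were tested with limma 3.58.1 in R 4.3.3 on log2(value + 1) with an intensity trend, adjusted over all 8610 with a threshold of 0.05; the procedure was tested on simulated data. Members and gene lists were chosen with earlier results of these data known. Genes named are the 15 largest called rises and falls among named unigenes detected in all 6 libraries whose groups do not overlap, the 8 largest among the others, and the called members of 42 lists with their best known members that were not called. Names were looked up in a RefSeq gerbil annotation (3008 of 3767 found). Alternatives (15) were other pseudocounts (0.1 and 5), no filter, a mean of at least 5, median-ratio rescaling, no trend, robust moderation, sums by symbol, a replicate block and leaving out each library. Some genes that this rule takes in are not reported here.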

Additional observations from a re-analysis of the deposited data

How the results depend on the processing

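Among all unigenes, a mean of at least 5 gave 329 lower. Leaving out 1 library gave 244 to 1085 calls in all, 97 to 587 higher and 137 to 498 lower. Among unigenes detected in all 6 libraries (456 calls, 203 higher and 253 lower), no intensity trend gave 198 calls, 104 higher and 94 lower, and rescaling gave 312 higher and 143 lower. There, leaving out 1 library gave 121 to 380 calls, 70 to 171 higher and 51 to 211 lower. The cause of these shifts was not tested. Same-numbered libraries of the 2 diets did not deviate together (r of -0.022, -0.018 and -0.002). Deviations from means of 3 libraries cannot tell whether the numbers pair animals or preparations, which the sources used here do not state. A replicate block gave 332 calls (129 higher, 203 lower) over all unigenes and 171 (95 higher, 76 lower) among those detected everywhere. When unigenes of a name were summed, Prf1 turned to -0.80, CYBA to 0.72, the 3 falling Pol unigenes to 0.42, the falling EEF2 to 0.97, the falling Ifngr1 to 0.23 and the falling Camsap3 to 0.15, as sums hold unigenes called in opposite directions. Of 183 named results, 21 lost their call on rescaling, 34 without a filter, 69 without the trend and 92 with the replicate block. With pseudocounts of 0.1 and 5, 14 and 21 lost it, and 5 with robust moderation. When 1 library was left out, 28 (without HFD 4W 1) to 109 (without ND 4W 1) lost it. Of the 317 calls of named unigenes detected in all 6 libraries, 107 were kept with the block. Unknown depth and 3 libraries a group limit what can be called.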

Other observations

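The genes in these paragraphs belong to none of the lists and were chosen after their values were seen. All were detected in the 6 libraries, and calls are those of limma with adjustment over all unigenes tested. Cd83, a surface protein of activated antigen-presenting cells, was at 1.28, 0.627 and 1.04 on ND and at 5.29, 7.60 and 5.92 on HFD (1.88, adjusted p = 0.00861). CSF2RA, a chain of the GM-CSF receptor, rose from 4.25 ± 0.78 to 17.8 ± 2.56 (SD, n = 3 each; 1.84, adjusted p = 0.00307). In both genes the groups were far apart, and both calls were kept in the 6 fits that leave out a library. Csf2rb, the shared chain of that receptor, rose by 1.39, a call lost without any 1 library other than HFD 4W 3. Clec4a, a C-type lectin, rose by 1.90 in 1 of 2 unigenes, and the other was not called (0.75). Ucp2, a carrier of the inner mitochondrial membrane, was at 9.75, 10.5 and 14 on ND and at 38.5, 56.2 and 42.0 on HFD (1.90, adjusted p = 0.00316). A unigene named vim1, in the spelling of another species for the filament vimentin, rose from 17.0 ± 4.29 to 67.0 ± 8.28 (1.93, adjusted p = 0.00307).

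Other genes chosen in that way were called lower. Nop16, a nucleolar protein, was at 33.7, 32.1 and 29.9 on ND and at 12.7, 13.6 and 13.5 on HFD (-1.20, adjusted p = 0.00307). ZNF593 fell from 12.9 ± 1.36 to 4.30 ± 1.06 (-1.41, adjusted p = 0.00877), and both calls were kept in the 6 fits. Nhp2 (-0.86), of the particles that modify ribosomal RNA, Nip7 (-0.63), Pwp1 (-0.63) and Lsg1 (-0.64) were lower too. Each of these 4 calls was lost without ND 4W 1 or HFD 4W 3, among others, and those of Nip7, Pwp1 and Lsg1 after rescaling. POLR2J, a subunit of RNA polymerase II, was at 39.1, 43.7 and 40.9 and at 19.9, 20.1 and 19.8 (-1.01, adjusted p = 0.00366, kept in the 6 fits).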
